A study of Mus musculus with 4 samples.

Results

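The genes of oxidative phosphorylation were followed in single-cell libraries from tumours of mice carrying Dalton's lymphoma ascites (DLA) cells. Members were taken by symbol: names that begin with Nduf, Uqcr, Atp5 or Cox followed by a digit, the 4 succinate dehydrogenase genes, Cyc1, Cycs and the 13 protein-coding genes of the mitochondrial genome. The names selected 118 of the 32285 genes in the matrices, and 114 of these reached 10 unique molecular identifiers (UMIs, each one counted RNA molecule) over the 4 libraries. Of the 114, 101 are encoded in the nucleus and 13 in the mitochondrion. The 4 left out were Cox8b and Ndufa4l2 with 0 UMIs, Cox8c with 1 and Cox4i2 with 9, and the lowest members kept were Cox6b2 with 37 and Cox6a2 with 43.

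The samples came from Swiss albino mice injected intraperitoneally with DLA cells. The 2 control samples carry the label untreated, while the study's supplement speaks of vehicle controls, and the 2 SP11 samples came from mice that received SP11 by mouth at 30 mg/kg for 17 days. SP11 is an inhibitor of HSP90, the chaperone that holds many client proteins in a folded state. No age is given for the mice, and nothing in the labels says whether the 2 samples of a group came from separate animals (the study's methods call the sets independent), so the p-values measure the spread between these samples. With 2 samples against 2, an exact two-sided permutation test cannot go below p = 0.333.

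Oxidative phosphorylation takes place in the inner mitochondrial membrane. Complexes I and II pass electrons from NADH and succinate to ubiquinone, complex III passes them on to cytochrome c, complex IV hands them to oxygen, and complex V uses the proton gradient built by complexes I, III and IV to make ATP. Every complex but II mixes subunits made in the cytosol from nuclear genes with core subunits that the mitochondrion transcribes and translates itself, so the 2 genomes have to be expressed together. The nuclear members comprised 37 subunits of complex I, 4 of II, 9 of III, 15 of IV and 17 of V, together with cytochrome c, 17 assembly factors and Cox7a2l, which helps complexes join into supercomplexes. The mitochondrial members comprised 7 subunits of complex I, 1 of III, 3 of IV and 2 of V.

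Filtering left 916 and 566 cells in the controls and 1831 and 1091 in the SP11 samples, with 9574906 to 13024964 UMIs per sample. The largest population, called the tumour population here, held 841, 528, 900 and 498 cells in Control 1, Control 2, SP11 1 and SP11 2. Although DLA is described as a lymphoma, this population carried epithelial marker transcripts at 4196 to 7514 CPM (UMIs per 1000000 UMIs of the same cells), against 9.76 to 75.8 for the B cell list and 1.49 to 11.1 for the T and NK cell list. The macrophage- and monocyte-like class held 44, 23, 366 and 177 cells, of which 16, 8, 92 and 16 also carried 3 or more keratin UMIs. These barcodes with both kinds of transcript are called mixed, and results for the class are given with and without them. Of the barcode sequences, 630 were kept in more than 1 library. A shared barcode had the same class in both libraries in 28.4% to 83.3% of cases, and the class shares alone give 28.9% to 84.2%.

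Some of the members overlap in the genome, which bears on how their counts are read. In the mouse mitochondrial genome (GRCm38, GENCODE vM21 transcripts), mt-Nd4l lies at chrM:9877-10173 and mt-Nd4 at chrM:10167-11544 on the same strand. The last 60 bases of the first and the first 60 of the second are shown because the 2 neighbours, which share 7 bases, gave different values in the tumour population. Capitals mark the shared bases.
mt-Nd4l: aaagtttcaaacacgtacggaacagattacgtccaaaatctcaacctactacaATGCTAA
mt-Nd4: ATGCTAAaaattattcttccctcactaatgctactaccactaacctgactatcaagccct
The genes mt-Atp8 (chrM:7766-7969) and mt-Atp6 (chrM:7927-8607) share 43 bases in the same way, again in capitals.
mt-Atp8: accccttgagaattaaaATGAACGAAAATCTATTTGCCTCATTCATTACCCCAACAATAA
mt-Atp6: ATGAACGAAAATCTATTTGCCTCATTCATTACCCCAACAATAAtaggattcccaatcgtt
A read that reaches into a shared stretch overlaps both genes, and how such reads were assigned was not examined. The split of counts between these neighbours is therefore uncertain, and so is a separate level for mt-Nd4l or mt-Atp8.

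In the tumour population, 8 members were lower under SP11 and none was higher. They were 3 small accessory subunits of complex I (Ndufa1, Ndufa3 and Ndufb1-ps), 1 of complex IV (Cox7c), 2 small membrane subunits of complex V (Atp5k and Atp5md), the copper chaperone of complex IV (Cox17) and 1 mitochondrially encoded core subunit of complex I (mt-Nd4l). Among all 11227 genes tested, 0.499% were called lower and 0.748% higher, and of the 112 members tested 8 were lower and 0 higher at an adjusted p below 0.05 (edgeR quasi-likelihood test, Benjamini-Hochberg adjustment). The 2 members not tested, Cox6a2 and Cox6b2, did not pass the filter on low counts. At an unadjusted p below 0.05 there were 26 members, 0 of them higher, against 1345 of the 11227 genes. DESeq2 called 8 members lower and 0 higher. In all, 95 of the 112 members had a negative sign, against 5621 of the 11227 genes, and 75 members did with scaling by total counts. The median log2 fold change was −0.18 for nuclear members, −0.01 for mitochondrially encoded members and 0.00 for all genes. With scaling by total counts the 3 medians were −0.06, 0.12 and 0.12.

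The tumour values that follow are CPM after scaling by the trimmed mean of M values (TMM), which corrects each library for its composition. The largest change among the 8 belonged to mt-Nd4l, a core membrane subunit, which stood at 108 and 112 in the controls and 74.3 and 58.9 under SP11 (log2 fold change −0.72, SE 0.13, adjusted p = 0.00282). Both SP11 samples lay below both controls. Its neighbour mt-Nd4, another core membrane subunit, stood at 528, 534, 504 and 709, a difference of 0.19 on the log2 scale (SE 0.15, adjusted p = 0.655) with overlapping groups.

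Of the nuclear complex I subunits, Ndufa3 fell from 308 and 295 to 210 and 171 (−0.66, SE 0.14, adjusted p = 0.0075). Ndufb1-ps fell from 135 and 139 to 84.0 and 89.1 (−0.66, SE 0.13, adjusted p = 0.00383). Ndufa1, an X-linked subunit needed to assemble the membrane arm, fell from 205 and 240 to 145 and 143 (−0.63, SE 0.13, adjusted p = 0.0088). None of the 3 had overlapping groups. On GRCm38 they lie on chromosomes 7 (3617373 to 3620327), 12 (101968090 to 101977068) and X (37187588 to 37191163).

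The copper chaperone Cox17 (chromosome 16, 38346991 to 38352763), which delivers copper for the active site of complex IV, stood at 233 and 304 in the controls and at 163 and 167 under SP11 (−0.70, SE 0.14, adjusted p = 0.00547). Cox7c (chromosome 13, 86044816 to 86046904), a small subunit of the same complex, was far more abundant, at 1092 and 1132 against 719 and 778 (−0.57, SE 0.14, adjusted p = 0.0328). In complex V, Atp5k, the e subunit at the dimer interface, stood at 607 and 529 against 406 and 307 (−0.67, SE 0.15, adjusted p = 0.0136). These 3 genes again separated the groups without overlap, as did the complex V membrane subunit Atp5md (chromosome 19, 47083464 to 47090647), at 701 and 685 against 462 and 429 (−0.64, SE 0.14, adjusted p = 0.0111). Each of the 8 kept its sign in all alternatives, but each except Ndufb1-ps lost its call when 1 sample or another was left out. Without Control 1 the calls of Atp5k, Ndufa3, Atp5md and Cox7c were lost, and without Control 2 those of Cox17, Atp5md, Ndufa1 and Cox7c. Without SP11 1 the call of Cox7c was lost, and without SP11 2 those of mt-Nd4l, Atp5k and Ndufa3. With 1 sample left out the adjusted p-values went up to 0.0504 for mt-Nd4l, 0.295 for Cox17 and 0.344 for Cox7c. For Ndufb1-ps the highest with 1 sample left out was 0.0447, and within 1 of the 3 clusters that make up the tumour population it was 0.233.

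**Figure D1:**
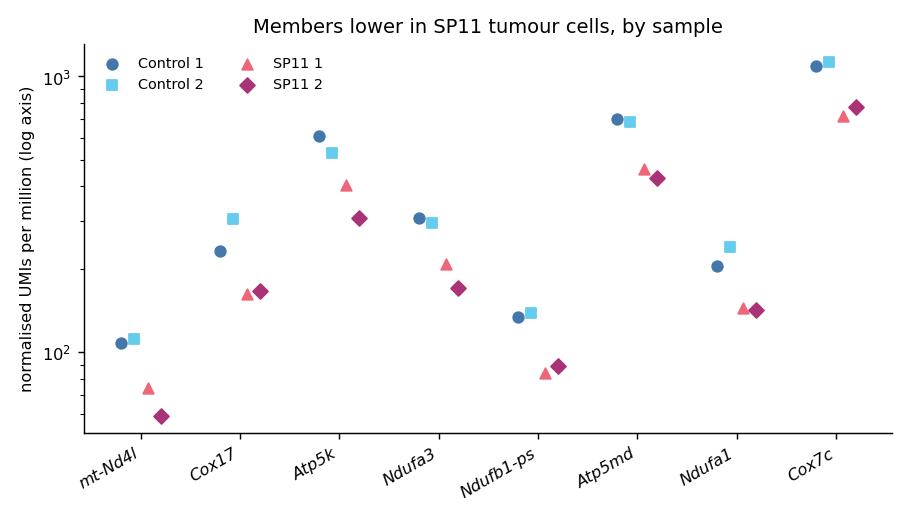
TMM-scaled CPM (log axis) of the 8 members lower under SP11 in the tumour population, with 1 point per sample. For each gene both SP11 points lie below both control points, from 58.9 against 108 for mt-Nd4l to 719 against 1092 for Cox7c.

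Negative fold changes were the rule in every complex but II. Of the 37 nuclear complex I subunits 34 had a negative log2 fold change and 3 were called (median −0.16), of 9 in complex III 9 were negative and 0 called (−0.19), of 13 tested in complex IV 13 were negative and 1 called (−0.29), and of 17 in complex V 15 were negative and 2 called (−0.21). Complex II, the only one that also belongs to the tricarboxylic acid cycle, had 2 of 4 negative and a median of −0.02. Its transcripts were also the longest, with a median of 2065.5 bases against 861, 1363, 610 and 809 in nuclear complexes I, III, IV and V. The part of length in this contrast was not tested. Of the 17 assembly factors 13 were negative and 1 was called (−0.20). On the TMM scale, 63 of the 112 members (56.25%) had both SP11 samples below both controls, against 20.6% of all genes tested, and 2 members had both above, against 22.1%. With scaling by total counts alone the shares were 36.6% of members against 8.09% of all genes for lower and 4.46% against 34.1% for higher. That scaling put the median of all genes at 0.12 and left the same 8 members called.

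The catalytic and carrier members showed little difference. Sdha, the flavoprotein of complex II, stood at 104, 94.4, 104 and 118 (0.16, SE 0.13, adjusted p = 0.66). The iron-sulphur subunit Sdhb was at −0.17 on the log2 scale (adjusted p = 0.652), and the membrane anchors Sdhc and Sdhd −0.12 (0.808) and 0.09 (0.859). In complex III, cytochrome c1 (Cyc1) stood at 749, 674, 705 and 630 and the Rieske protein Uqcrfs1 at 315, 317, 279 and 307, neither past the threshold (adjusted p = 0.848 and 0.807). Cytochrome c itself (Cycs) stood at 1106, 1212, 1048 and 1100 (−0.11, adjusted p = 0.82). None of these genes is shown to be equal between the groups by a p that misses the threshold.

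Levels within a complex spanned a wide range. Among the nuclear members tested, compared per kilobase of transcript, complex I ran from Ndufa2 at 1783 CPM down to Ndufs1, the large iron-sulphur subunit, at 20.4, and complex II from Sdhb at 220 to Sdhc at 8.70. Complex III ran from Uqcr10 at 2724 to the core protein Uqcrc2 at 80.6, complex IV from Cox8a at 4115 to Cox7a1 at 57.4, and complex V from Atp5e at 3430 to the catalytic alpha subunit Atp5a1 at 140. In each of complexes I, III, IV and V the highest nuclear member tested was thus a short accessory subunit. Per-kilobase values favour short genes in a library that counts the 3' end once per molecule.

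Shorter transcripts had the more negative fold changes. Over the 99 nuclear members tested, Spearman's rho between the length of the principal transcript and the log2 fold change was 0.61, and over 11109 tested genes that are not members it was 0.37. Both are descriptions across genes of the same 4 samples. The 7 called nuclear members had a median length of 444 bases and the 92 not called a median of 943. Below 500 bases, 4 of 12 nuclear members were called lower with a median of −0.43, and of 187 other genes 20 were called lower (10.7%) with a median of −0.30. Between 500 and 1000 bases the medians were −0.22 for 44 nuclear members and −0.13 for 864 other genes. Between 1000 and 2000 bases they were −0.12 for 30 and −0.08 for 2557, and no nuclear member was called there. When length was entered as an offset in the fit (an alternative chosen after seeing the data), 1 member of 112, Ndufb1-ps, stayed below the threshold (−0.52, adjusted p = 0.0301), against 0.321% of all genes called lower. The nuclear median was then −0.05 and the mitochondrial median 0.15. Adjusted p-values of the other 7 ranged from 0.110 for Ndufa3 to 0.298 for Cox7c.

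**Figure D2:**
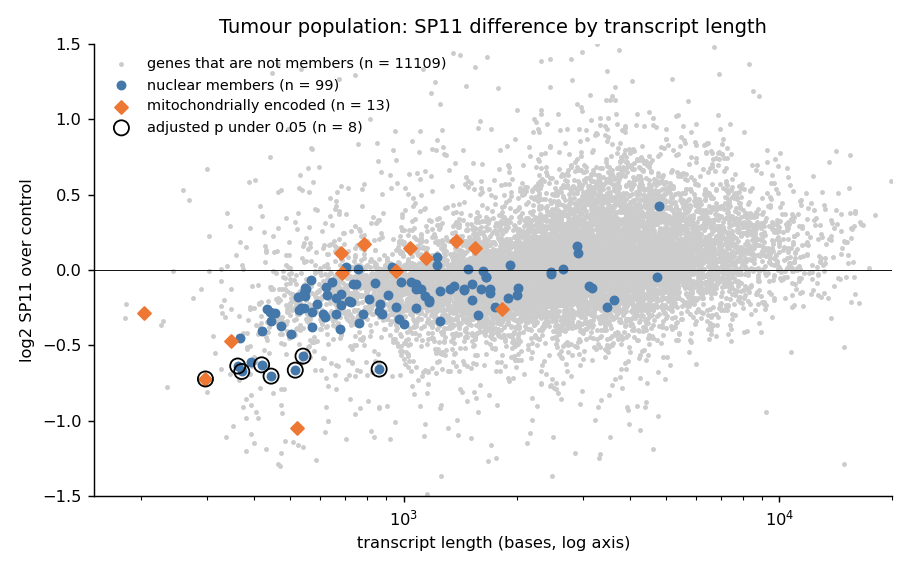
Log2 fold change of SP11 over control in the tumour population against principal transcript length in bases (log axis), for the members and for the other genes tested. Medians of both sets lie furthest below 0 under 500 bases, at −0.43 for nuclear members and −0.30 for other genes.

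The 13 mitochondrially encoded genes did not move together. Besides mt-Nd4l, 4 others (mt-Nd3, mt-Nd5, mt-Nd6 and mt-Atp8) had both SP11 samples below both controls and mt-Co3 had both above, none past the threshold. Over all genes tested, 20.6% had both below and 22.1% both above on the TMM scale. The shortest of the 13 were mt-Atp8, mt-Nd4l, mt-Nd3 and mt-Nd6, at 204, 297, 348 and 519 bases, and mt-Nd5 was the longest at 1824. The only member on the opposite strand, mt-Nd6, stood at 4.69, 5.96, 2.20 and 2.88 (−1.05, SE 0.29, adjusted p = 0.0727), and mt-Nd3 at 180, 167, 111 and 139 (−0.47, SE 0.13, adjusted p = 0.0897). The remaining complex I core subunits were mt-Nd1 at −0.01, mt-Nd2 at 0.14 and mt-Nd5 at −0.26 on the log2 scale, and mt-Cytb, the cytochrome b of complex III, was at 0.08. The mitochondrially encoded subunits of complex IV included the most abundant member, mt-Co3, at 5966, 5665, 6186 and 6942 (0.18, adjusted p = 0.702). The others were mt-Co1 at 2672, 3024, 2811 and 3485 (0.14) and mt-Co2 at 2348, 2818, 2296 and 2791 (−0.02). In complex V, mt-Atp6, which forms the proton channel, was at 0.12 and mt-Atp8 at −0.29. For 7 genes (mt-Nd1, mt-Nd2, mt-Nd4, mt-Cytb, mt-Co1, mt-Co3 and mt-Atp6) SP11 2 had the highest of the 4 values. Without SP11 2 the mitochondrial median was −0.25 and without SP11 1 it was 0.18.

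**Figure D3:**
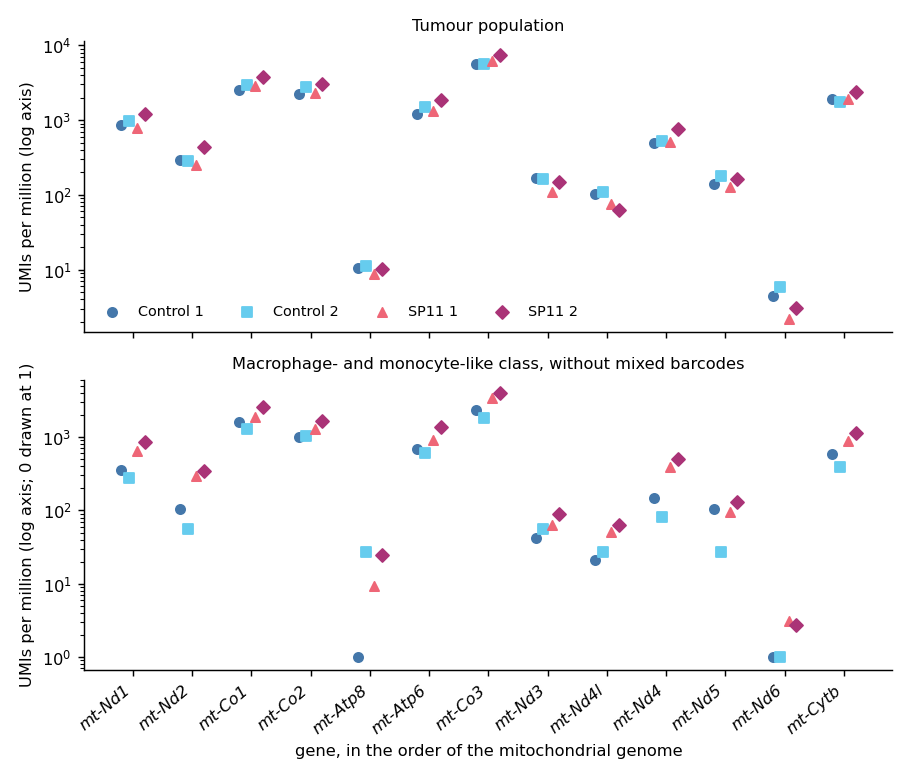
Levels of the 13 mitochondrially encoded genes in the tumour population and among macrophage- and monocyte-like cells without mixed barcodes (CPM, log axis, 0 drawn at 1), with 1 point per sample. In the tumour population only mt-Nd4l passed the test, and 6 genes passed in the other panel.

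Summed over members, the tumour population gave 5.84% and 5.69% of its UMIs to nuclear members in the controls and 5.56% and 5.23% under SP11. The groups did not overlap (exact permutation p = 0.333, the smallest possible). Complexes III, IV and V behaved likewise, for instance complex IV at 16757 and 16568 CPM against 15532 and 14886. Complexes I and II overlapped (exact permutation p = 0.667 each). Mitochondrially encoded genes took 1.56%, 1.68%, 1.64% and 2.13%, and the ratio of mitochondrial to nuclear member UMIs was 0.266, 0.295, 0.295 and 0.408, both with overlapping groups (exact permutation p = 0.667 each). The highest share and ratio were those of SP11 2. Cells with more than 10% of UMIs on mitochondrially encoded genes had been left out, which caps this share. Grouped without that limit, the tumour population held 27 and 20 such cells in the controls and 1 and 1 under SP11. The median log2 fold change of the mitochondrially encoded members was then −0.05. Within the tumour population, the cluster with the most SP11 2 cells (395) gave a mitochondrial share of 1.58%, 1.67%, 1.61% and 2.14%, and the second, with 34 SP11 2 cells, gave 1.53%, 1.67%, 1.53% and 1.74%. The third, with 69 SP11 2 cells, gave 2.50%, 1.83%, 2.68% and 2.22%, so SP11 2 was not the highest there. In the first cluster 6 members were lower (Atp5k, Atp5md, Ndufa1, Ndufa3, Ndufb1-ps and mt-Nd4l), where 0.374% of genes were called lower. In the second 1 member was lower, mt-Nd3, where 0.0641% of genes were called lower. The shift over all members was smaller inside these clusters. In the first, 76 of 112 members had a negative sign and the nuclear median was −0.08. In the second these values were 85 of 111 and −0.13, against 95 of 112 and −0.18 in the whole tumour population. The 8 erythroid markers together stood at 133 and 89.0 CPM in the tumour population of the controls and at 2943 and 1571 CPM under SP11, and their part in these results was not tested.

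In all kept cells together, which mix the classes in different shares, 17 of 113 members were lower and 1 was higher, where 1.63% of 12149 genes were lower and 9.11% higher. The 17 were the 8 named above and mt-Nd6, mt-Nd3, Cox7a1, Cox6c, Cox7b, Atp5e, Atp5mpl, Ndufb3 and the complex I assembly factor Ndufaf2. In such a sum, fewer cells of a type and less RNA per cell cannot be told apart. SP11 samples held 366 and 177 macrophage- and monocyte-like cells against 44 and 23 in controls, and that class had lower summed levels of every complex, as given next. Of the 9 added genes, the tumour population alone gave Cox7a1 −0.61 (SE 0.16, adjusted p = 0.0598) and Ndufb3 −0.35 (SE 0.13, adjusted p = 0.252).

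The macrophage- and monocyte-like class had lower summed levels than the tumour population for every complex and both genomes. Without mixed barcodes (a choice made after seeing the data), the mean log2 ratio within samples was −0.75 ± 0.18 (SD, n = 4) for nuclear complex I, −0.66 ± 0.07 for II, −1.09 ± 0.10 for III, −0.93 ± 0.17 for IV and −0.79 ± 0.19 for V. The 13 mitochondrially encoded genes stood at −1.04 ± 0.39. All 4 samples were negative in each case, and an exact sign-flip test over 4 samples gives p = 0.125 at the smallest. With mixed barcodes the means lay between −0.41 (complex II) and −0.54 (complex III), again negative in 4 of 4 samples.

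Gene by gene, 90 of 114 members were lower in the class than in the tumour population in all 4 samples and 4 were higher. The same count was not made over all genes, so it does not show a trait particular to the members. The median log2 ratio was −0.83, calculated with 10 CPM added to each level. Cytochrome c (Cycs) stood at 1042, 1187, 1050 and 1191 CPM in the tumour population and at 380, 220, 222 and 224 in the class, and cytochrome c1 (Cyc1) at 706, 660, 706 and 682 against 190, 220, 160 and 113. Neither gene overlapped between the classes. The complex IV-associated subunit Ndufa4 also lay far below, with a mean log2 ratio of −1.88. Against this direction, Ndufb1-ps stood at 338, 468, 169 and 202 in the class and 127, 136, 84.2 and 96.4 in the tumour population (mean log2 ratio 1.25), Ndufb8 of the membrane arm at 465, 523, 441 and 395 against 301, 288, 295 and 277 (0.63), the assembly factor Cox20 at a ratio of 1.23 on 46 UMIs and the complex III hinge protein Uqcrh at 0.08. Ndufb8, Cox20 and Uqcrh were chosen after their values were seen.

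For SP11 against control inside the class, 0 of 104 members passed with mixed barcodes included (edgeR), where 0.267% of 4871 genes were lower and 0.164% higher. In simulated data for this class the test recovered 0 of 50 genes at a fold of 0.5 and 0 of 50 at 2. The 0 calls therefore do not show that members were unchanged. In the real data 8 members had an unadjusted p below 0.05, 5 of them higher, against 511 of the 4871 genes, and DESeq2 called 0 members. Without mixed barcodes 28, 15, 274 and 161 cells remained, 2.63% of 2815 genes were higher and 1.46% lower, and 6 of 93 members tested were higher, all mitochondrially encoded: mt-Nd1, mt-Nd2, mt-Nd4, mt-Cytb, mt-Co3 and mt-Atp6. No nuclear member was called, and their median was −0.17 against 0.96 for the mitochondrial genes and 0.14 for all genes.

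The best counted of the 6, mt-Co3, stood at 2324 and 1844 CPM in the controls (110 and 67 UMIs) and 3377 and 3999 under SP11 (log2 fold change 0.96, SE 0.19, adjusted p = 0.00831). The largest ratios rested on few control UMIs. The complex I core subunit mt-Nd4 was counted 7 and 3 times in the controls (148 and 82.6 CPM) against 391 and 500 CPM under SP11 (2.04, SE 0.41, adjusted p = 0.00865), and mt-Nd2 stood at 106 and 55.1 against 294 and 340 (2.06, SE 0.47, adjusted p = 0.0167). All 3 separated the groups. So did mt-Nd1, at 359 and 275 against 645 and 857, and mt-Cytb, at 592 and 385 against 876 and 1128 (adjusted p = 0.0147 and 0.0185), and mt-Atp6, at 697 and 606 against 917 and 1385 (0.95, SE 0.26, adjusted p = 0.0427). The catalytic core mt-Co1 missed the threshold (0.73, SE 0.21, adjusted p = 0.0541).

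The share of UMIs on mitochondrially encoded genes in the class was 0.704% and 0.573% in the controls and 0.987% and 1.27% under SP11, while nuclear members took 3.67% and 3.29% against 2.86% and 2.53%. Mitochondrial UMIs per nuclear member UMI thus stood at 0.192 and 0.174 against 0.345 and 0.501. None of the 3 measures overlapped (exact permutation p = 0.333 each). With mixed barcodes the mitochondrial share still separated (1.13% and 0.789% against 1.45% and 1.67%) and the nuclear share overlapped. Composition of the class also differed: its Fn1-led cluster held 2, 0, 211 and 118 cells, and its Wfdc17-led cluster 24, 14, 34 and 24. In the Wfdc17-led cluster alone the ratio was 0.189 and 0.173 against 0.293 and 0.445, and mt-Co3 was the 1 member called higher of 57 tested (2.12% of 613 genes were higher). The 8 erythroid markers summed to 254 and 248 CPM in the control cells of the class and 70016 and 70956 in its SP11 cells, and their part in these values was not tested.

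Whether SP11 acted differently on the members in the 2 populations was tested as an interaction. With mixed barcodes 0 of 110 members passed (0.0628% of 9559 genes were more positive in the macrophage- and monocyte-like class and 0.565% more negative). An unadjusted p below 0.05 was found for 8 members, against 683 of the 9559 genes, and DESeq2 called 0 members. Without mixed barcodes 8 of 105 were more positive in that class, against 0.812% of 6649 genes: mt-Nd1, mt-Nd2, mt-Nd4, mt-Cytb, mt-Co1, mt-Co2, mt-Co3 and mt-Atp6. The difference was 1.38 on the log2 scale for mt-Nd1 (adjusted p = 9.87e-05), 0.79 for mt-Co3 (1.45e-05) and 1.86 for mt-Nd4 (0.000546). The interaction calls were thus made only where mixed barcodes were left out.

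The other immune classes reached 15 cells without mixed barcodes in the SP11 samples only, and were read there. Without mixed barcodes the B cell-like class gave 1.97% and 2.73% of UMIs to mitochondrially encoded genes and 2.29% and 1.98% to nuclear members, a ratio of 0.859 and 1.38. In the T and NK cell-like class the ratio was 0.614 and 0.821, in the neutrophil-like class 0.740 and 0.711 and among macrophage- and monocyte-like cells 0.345 and 0.501, against 0.295 and 0.408 in the tumour population. Among these 5 populations the B cell-like class had the highest ratio and the tumour population the lowest in both SP11 samples. The controls had the opposite order at the low end. There the macrophage- and monocyte-like class stood at 0.192 and 0.174, below the tumour population at 0.266 and 0.295. With mixed barcodes the B cell-like ratio was 0.450 and 0.785, and the order at the low end was not kept, since the neutrophil-like class of SP11 2 stood at 0.384 and the tumour population at 0.408. The nuclear share of the neutrophil-like class was 1.20% and 0.968% without mixed barcodes and 5.29% and 4.70% with them. Of its 96 and 88 cells 76 and 27 were mixed, and among the 20 left in SP11 1 the median cell had 0.331% mitochondrial UMIs, against 0.886% in the pooled sum. Depth differed with class, from medians of 576 to 1941 UMIs per immune cell to 8663 and 19560 per tumour cell, and its part in these ratios was not tested.

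**Figure D4:**
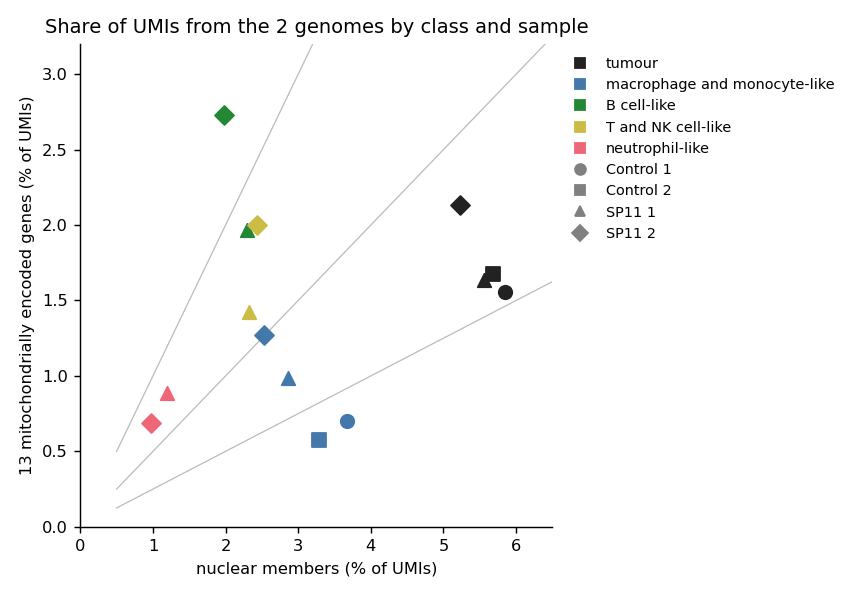
Percent of UMIs on the 13 mitochondrially encoded genes against percent on nuclear members, with 1 point per class and sample and without mixed barcodes. Grey lines mark 0.25, 0.5 and 1 mitochondrial UMI per nuclear UMI. B cell-like points lie near or above the last line and the tumour population between the first and the second.

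Among the paralogs with restricted tissue use, Cox7b2 separated the tumour population from the macrophage- and monocyte-like class. This gene, a relative of Cox7b, stood at 96.0, 99.5, 92.2 and 98.3 CPM in the first and at 21.1, 0, 9.39 and 8.29 in the second, where it rested on 7 UMIs. The common form Cox7b stood at 1044, 1140, 879 and 966 against 507, 688, 363 and 387. The common form thus separated them as well. Cox7a1, the form typical of heart and skeletal muscle, was present in the tumour population at 25.8, 26.4, 20.8 and 16.4, next to the common Cox7a2 at 1837, 1767, 1657 and 1523, and its log2 ratio of the class to the tumour population ran from −1.86 to 0.55 on 10 UMIs in the class. Under SP11 the tumour population showed Cox7b2 at −0.15, Cox7a2 at −0.29, Cox6a1 at −0.38, Cox6b1 at −0.31, Cox8a at −0.13, Cox4i1 at −0.09 and Cox7a2l at −0.10 on the log2 scale, none past the threshold. The 3 genes of the c ring of complex V, Atp5g1, Atp5g2 and Atp5g3, were at −0.05, −0.28 and −0.21.

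Cox6a2, the heart and muscle form of Cox6a1, was the 1 member higher in all kept cells (log2 fold change 3.65, SE 0.80, adjusted p = 0.00401, edgeR). DESeq2 called 0 members higher there. The 43 UMIs of Cox6a2 were not spread over classes. In an unnamed cluster of 13 cells, all from SP11 samples, it had 23 UMIs in 8 of 9 cells of SP11 1 and 9 UMIs in 4 of 4 cells of SP11 2, or 785 and 1299 CPM. Of the 9 cells 3 were mixed. Because the cluster held no control cells, the fit over all kept cells cannot tell more such cells from more RNA per cell. The tumour population held 0, 2, 1 and 3 UMIs in 841, 528, 900 and 498 cells, and the common Cox6a1 stood at 137 and 433 CPM in the cluster. The cluster was formed without the members and was led by Klk1, Tcf4, Siglech and Irf8. Siglech and Irf8 are on the dendritic marker list, with 16 UMIs in 9 of the 13 cells and 33 UMIs in 12. Of the other dendritic markers Flt3, Clec9a and Cd209a had 1 UMI each and Xcr1, Zbtb46, Ccr7, Itgax and Batf3 had 0. Too few markers of the list were detected for the naming rule, so the cluster was left unnamed. With a mitochondrial limit of 20%, a cluster of 14 cells led by the same genes was named dendritic.

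**Figure D5:**
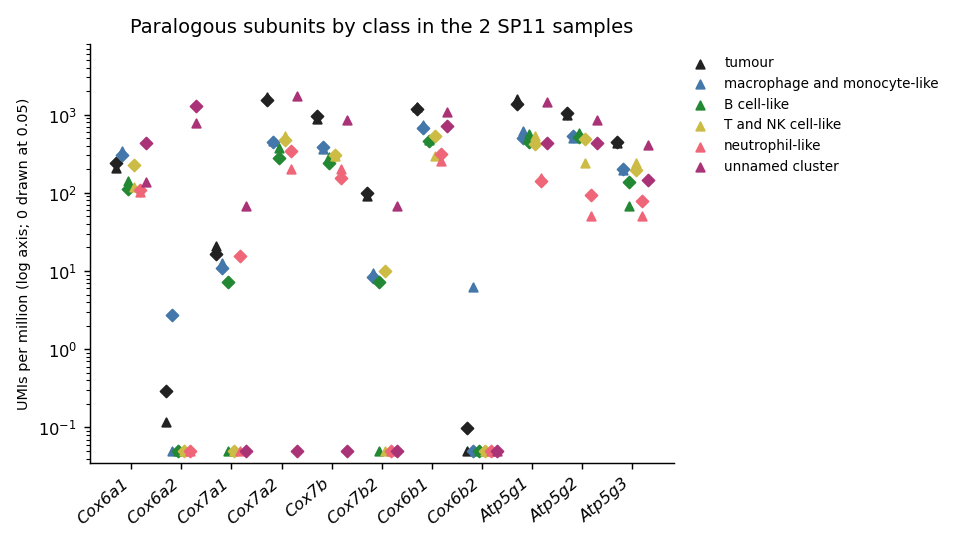
CPM (log axis, 0 drawn at 0.05) of tissue-restricted and common paralogs by class and sample, without mixed barcodes except in the unnamed cluster, where all 13 cells are shown. Cox6a2 is at 785 and 1299 in the unnamed cluster, and Cox7b2 is higher in the tumour population than in the macrophage- and monocyte-like class.

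Promoters of the members were searched for motifs known from respiratory genes, on both strands of the 300 bases around each start (250 before and 50 after) in RefSeq on GRCm38.p6. A promoter was matched by symbol for 82 members among 27025 genes. The motif of nuclear respiratory factor 1 (GCGC, any base, T and GCGC again, or its reverse complement) occurred in 19 (23.2%) against 5.19% of all. The ETS-type motif CCGGAAG, bound by the GABPA class of factors, occurred in 24 (29.3%) against 9.93%, the YY1 motif AAGATGGCG in 9 (11.0%) against 1.64%, and TATAAA in 8 (9.76%) against 15.7%. Of the 8 members lower in the tumour population, 5 had a promoter in the table, and the first motif was found in Atp5k alone. Its promoter is shown with that of Sdha, which held the motif 3 times and whose level did not pass the test. Capitals mark the motif. The windows are chr5:108434350-108434649 for Atp5k and chr13:74350191-74350490 for Sdha, both on the minus strand.
Atp5k: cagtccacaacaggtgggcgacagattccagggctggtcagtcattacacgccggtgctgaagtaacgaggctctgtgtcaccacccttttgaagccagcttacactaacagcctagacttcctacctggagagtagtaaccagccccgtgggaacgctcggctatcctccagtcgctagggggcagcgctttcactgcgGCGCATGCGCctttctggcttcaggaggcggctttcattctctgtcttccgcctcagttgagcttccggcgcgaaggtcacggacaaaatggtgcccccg
Sdha: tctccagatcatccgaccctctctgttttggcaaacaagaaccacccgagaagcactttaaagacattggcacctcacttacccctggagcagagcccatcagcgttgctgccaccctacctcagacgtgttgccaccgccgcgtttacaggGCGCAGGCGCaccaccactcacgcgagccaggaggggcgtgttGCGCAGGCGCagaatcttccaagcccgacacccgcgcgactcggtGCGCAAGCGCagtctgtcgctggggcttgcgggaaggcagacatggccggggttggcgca
A match is only a match of letters, and the other 4 called members with a promoter held none of the first motif. Atp5k and Atp5md held the ETS letters, and Atp5md and Ndufa3 the TATA letters.

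Other mitochondrial lists gave few calls in the tumour population. Of 23 genes of mitochondrial transcription and RNA handling 1 was lower, Slirp, which stabilises mitochondrial mRNAs, at 164 and 194 against 116 and 116 (−0.63, SE 0.13, adjusted p = 0.00863). Of 29 further assembly factors 1 was lower, the complex IV factor Pet100, at 68.8 and 64.4 against 48.6 and 36.4 (−0.65, SE 0.14, adjusted p = 0.012). Of 14 mitochondrial chaperones and proteases 1 was higher, the matrix protease Lonp1, at 59.9 and 59.1 against 83.3 and 92.1 (0.56, SE 0.13, adjusted p = 0.018). All 3 separated the groups and stayed below the threshold with the length offset, whereas with DESeq2 Pet100 and Lonp1 had adjusted p-values of 0.0778 and 0.0823. Of 78 mitochondrial ribosomal proteins 70 had a negative log2 fold change and 0 were called, with a median of −0.11. An unadjusted p below 0.05 was found for 10 of them, against 1345 of all 11227 genes. Of 17 tricarboxylic acid cycle genes, 8 regulators of biogenesis and 8 carriers none was called by edgeR, with medians of −0.10, 0.10 and −0.14 and 2, 3 and 1 at an unadjusted p below 0.05. DESeq2 called 0 in each of these 4 lists. The tricarboxylic acid cycle gene Fh1 (fumarate hydratase) stood at 60.3 and 92.9 against 48.5 and 53.5 (−0.58, SE 0.15, adjusted p = 0.0564), and it passed with the length offset (adjusted p = 0.0337). In the macrophage- and monocyte-like class neither tool called a gene of any list, and 2 genes over all lists, 1 of them in the tricarboxylic acid cycle, had an unadjusted p below 0.05.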

How the data were processed

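The matrices deposited by the authors hold unnormalised UMI counts, made with Cell Ranger 7.1.0 per the file headers, and the submitters' processing notes name mm10. Barcodes with 200 genes or more and at most 10% mitochondrial UMIs were kept. Clusters (scanpy 1.11.5, 2000 variable genes without members, 30 components, 20 neighbours, Leiden resolution 0.5) were named from fixed markers. Doublets (Scrublet score above 0.25) were removed only as an alternative. Counts were summed per sample and class and tested with edgeR 4.0.16 (TMM, quasi-likelihood, Benjamini-Hochberg threshold 0.05) in R 4.3.3. DESeq2 1.42.0 was an alternative. The tests were checked on simulated data. Single values were compared by exact permutation over samples. Named genes were called members, mitochondrial genes, extremes per complex, tissue paralogs, catalytic and carrier subunits, members near the UMI minimum and called genes of the other lists. Members and lists were chosen with earlier results of these data known. No batch is given in the sources used here. Lengths came from GENCODE vM21 principal transcripts.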

Additional observations from a re-analysis of the deposited data

How the results depend on the processing

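The macrophage- and monocyte-like class held 44 and 23 control cells, and 28 and 15 without mixed barcodes. The count of 8 lower members in the tumour population fell to 1 with a length offset and to 1 within the second tumour cluster, and leaving out 1 sample gave 4 to 10 (4 without Control 2, 5 without Control 1). In all kept cells, the 17 lower members became 7 with the length offset and 11 with total count scaling, and 8 to 31 with 1 sample left out (8 without Control 2, 10 without Control 1, 31 without SP11 1); the 1 higher member became 0 with DESeq2 and 1 to 2 with 1 sample left out. Among macrophage- and monocyte-like cells the 0 higher members became 6 without mixed barcodes and 1 in the Wfdc17-led cluster, and the interaction went from 0 to 8 without mixed barcodes. The log2 change of the nuclear share in that class was −0.03 and ranged from −0.24 to 0.16 with 1 sample left out (0.16 without Control 1, 0.15 without SP11 2), and that of nuclear complex I in the tumour population was −0.07 and ranged from −0.15 to 0.014 (0.014 without SP11 2). The cause of these shifts was not tested. The replicate numbers share only a number: the differences between replicates 1 and 2 correlated at 0.17 between the groups over 11227 genes. With that number as a replicate block, 21 members were lower in the tumour population (260 of all 11227 genes) and 40 in all kept cells (705 of 12149 genes). Among macrophage- and monocyte-like cells 1 member was then higher and 1 lower (30 higher and 127 lower of 4871 genes). Over all alternatives, 289 values of the main results stayed the same, meaning a similar count of members or a log2 change of the same sign. Another 9 were stronger, 9 weaker and 3 reversed in sign. The length offset, total count scaling, clusters within a class and removal of mixed barcodes were chosen after seeing the data.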
